A study of Homo sapiens with 6 samples.

Results

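Transcripts of 10 aldehyde dehydrogenases were followed in A549 cells with and without small interfering RNA against FOXD3. The 10 genes, ALDH1A1, ALDH1A3, ALDH1B1, ALDH2, ALDH3A1, ALDH3A2, ALDH3B1, ALDH7A1, ALDH9A1 and ALDH18A1, were taken by symbol from the 17789 symbols that the 6 libraries list. They make up 10 of the 19 ALDH symbols listed in at least 1 library and were chosen with earlier results of these data known. A549 cells were derived from a human lung adenocarcinoma and grow as an epithelial sheet. The study compared 3 control libraries, labelled wild type, with 3 libraries labelled FOXD3 knockdown. Knockdown cells received a commercial siRNA pool against FOXD3, a forkhead transcription factor, with a lipid transfection reagent, and loss of FOXD3 was examined 72 h later per the labels' protocols. What the control wells received is not given in the sources used here, so transfection itself and loss of FOXD3 cannot be told apart. All cells came from 1 line, and nothing in the labels says whether the libraries of a group came from separate cultures. What the p-values measure is therefore the spread among these samples alone, which may be technical. In bulk RNA of this kind, fewer cells of a type and less RNA per cell cannot be told apart.

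Aldehyde dehydrogenases oxidise aldehydes to carboxylic acids with NAD or NADP. The substrates range from acetaldehyde and the products of lipid peroxidation to retinaldehyde, whose oxidation yields the hormone-like signal retinoic acid, and to intermediates of lysine, choline, carnitine and proline metabolism. Cytosolic ALDH1A1 and ALDH3A1 are known as abundant enzymes of the airway epithelium and of many lung carcinoma lines, where they also inactivate the cyclophosphamide metabolite aldophosphamide, and ALDH1A1 activity is widely used to mark subpopulations of carcinoma cells.

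The targeted gene was checked first. FOXD3 stood at 0.152, 0.291 and 0.134 FPKM (mapped fragments normalised to transcript length and library size) in the control libraries, at 0.0749 in knockdown replicate 2, and was not listed in knockdown replicates 1 and 3. The groups did not overlap, with p = 0.1 in an exact permutation test (two-sided; no smaller p is possible with 3 against 3), and all values lay near the detection limit. The files hold no read counts. Low values of intronless genes, read as single fragments, gave a rough depth of 6460000 to 7600000 fragments per library, at which the lowest level of any of the 10 genes, ALDH2 in the knockdown libraries, corresponds to 28.0 to 32.3 fragments per kilobase of transcript. Epithelial markers were abundant: EPCAM, CDH1, KRT7, KRT8 and KRT18 summed to 5751 to 6442 FPKM in control and 7573 to 7668 in knockdown libraries. By the limma test used below, EPCAM, KRT8 and KRT18 were called higher and CDH1 and KRT7 lower. The CDH1 and KRT7 calls were not kept under every processing tried. The sums for fibroblast, endothelial and leukocyte markers reached at most 4.46 FPKM in any library, and the fibroblast genes DCN and LUM were at 0 in all of them. The leukocyte marker sum was 2.71 to 3.92 FPKM in control and 1.37 to 1.92 in knockdown libraries, most of it CD14. The endothelial sum was 2.56 to 3.40 and 1.87 to 2.18, most of it CDH5. The part of these markers in the results was not tested.

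Sequence upstream of the ALDH1 subfamily is shown because its 3 members here, ALDH1A1, ALDH1A3 and ALDH1B1, did not move together. Each line gives the 250 bases before the annotated start in RefSeq (GRCh38.p14), 5′ to 3′ in the direction of transcription. Capitals mark GCGTG, the core of the element bound by the aryl hydrocarbon receptor AHR, and CCAAT, a common promoter box that was added to the search after the sequences had been seen. Both strands were searched and no 2 matches overlap. ALDH1A1 lies on the minus strand at chr9:72953054-72953303, ALDH1A3 on the plus strand at chr15:100879581-100879830, and ALDH1B1 on the plus strand at chr9:38392452-38392701.
ALDH1A1: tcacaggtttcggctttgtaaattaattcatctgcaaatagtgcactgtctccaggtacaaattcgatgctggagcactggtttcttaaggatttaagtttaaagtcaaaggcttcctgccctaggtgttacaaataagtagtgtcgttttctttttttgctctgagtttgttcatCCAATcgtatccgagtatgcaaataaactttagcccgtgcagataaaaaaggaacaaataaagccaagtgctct
ALDH1A3: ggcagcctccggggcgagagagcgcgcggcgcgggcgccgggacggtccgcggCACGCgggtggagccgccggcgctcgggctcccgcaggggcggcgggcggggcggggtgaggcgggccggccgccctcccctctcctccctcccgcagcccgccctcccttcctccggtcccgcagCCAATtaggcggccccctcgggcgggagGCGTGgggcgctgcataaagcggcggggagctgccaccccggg
ALDH1B1: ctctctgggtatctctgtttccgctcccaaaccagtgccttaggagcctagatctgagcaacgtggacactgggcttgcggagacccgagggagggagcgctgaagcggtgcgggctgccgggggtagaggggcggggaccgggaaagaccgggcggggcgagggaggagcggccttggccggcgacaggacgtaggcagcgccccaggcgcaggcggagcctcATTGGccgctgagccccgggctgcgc
The ALDH1A1 window has a GC content of 38.4%, against 82.4% for ALDH1A3, 70.4% for ALDH1B1 and a median of 58.0% over all 35116 RefSeq windows. CCAAT begins 74 bases before the start in ALDH1A1 and 71 bases before it in ALDH1A3, while in ALDH1B1 it lies on the opposite strand, from 26 bases before the start. GCGTG occurs at 2 places in ALDH1A3 and at none in the other two. Windows for 8 of the 10 genes, 10 windows in all, could be matched; ALDH2 and ALDH3A1 were not analysed here. CCAAT was found in 5 of them, against 32.0% of all windows, and GCGTG in 2 (ALDH1A3 and ALDH3A2), against 32.2%. The core of the antioxidant response element, searched as TGACNNNGC, was in 0 of these 10 windows, against 10.9% of all windows. These are matches of letters in a short window, not binding sites, and elements elsewhere were not searched.

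When knockdown and control libraries were compared over 13340 genes, 9 of the 10 aldehyde dehydrogenases passed limma's test at a Benjamini-Hochberg adjusted p under 0.05, where 63.5% of all tested genes did. The family split: ALDH1A1, ALDH1B1, ALDH3A1, ALDH3A2 and ALDH18A1 rose, 5 of 10 against 25.6% of all genes, and ALDH1A3, ALDH2, ALDH3B1 and ALDH7A1 fell, 4 of 10 against 37.9%. Only ALDH9A1 did not pass. The control and knockdown libraries did not overlap for any of the 10, as for 69.1% of all genes. A call together with a change of at least 2-fold in mean FPKM was found for ALDH1A1, ALDH2 and ALDH3B1, 3 of 10 against 14.3%. With so many genes called, a call by itself sets these genes little apart, and the text below gives sizes. Because the 10 genes were chosen with earlier results known, no conclusion is drawn from counts above these shares. The median log2 change of the 10 genes was 0.12, against -0.09 over all tested genes. After quantile normalization the 2 medians were 0.15 and 0.03, so the scaling moves the median of all genes by over 0.1 and changes of this size depend on it. Log2 changes give knockdown relative to control after adding 1 to each FPKM value, a scale on which low genes appear to change less than they did, and errors of means are SDs over n = 3 libraries.

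**Figure D1:**
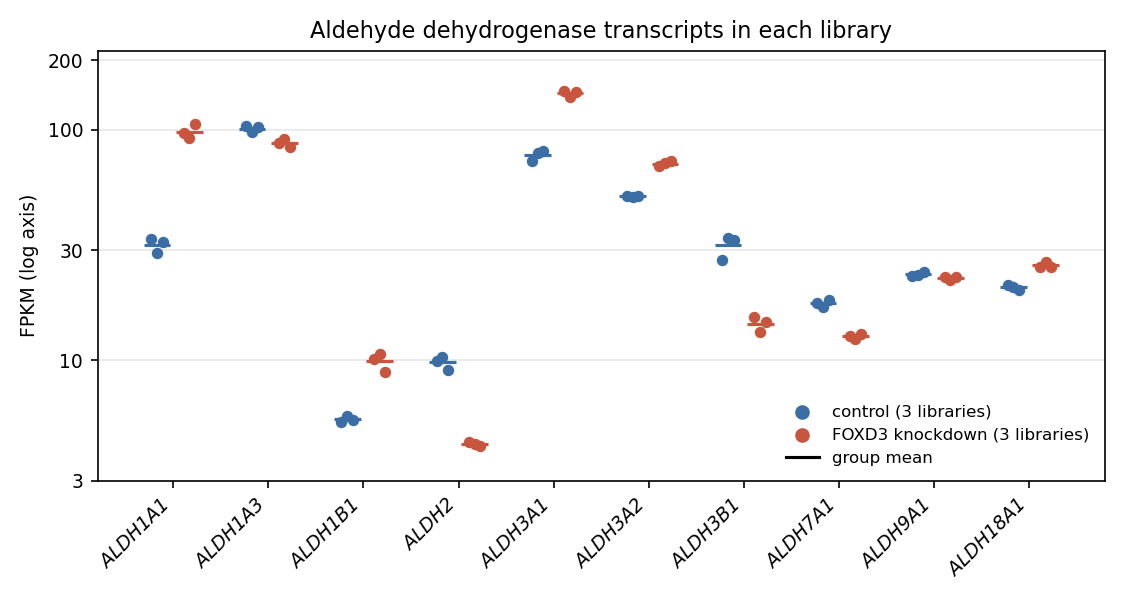
FPKM of the 10 aldehyde dehydrogenases on a log axis; each point is 1 library (blue control, red FOXD3 knockdown) and each bar a group mean. ALDH1A1 rises from 29.1 to 33.4 FPKM in control libraries to 91.8 to 106 in knockdown libraries, ALDH2 and ALDH3B1 fall by more than 2-fold, and the ALDH9A1 groups lie next to each other.

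ALDH1A1 and ALDH1A3 are the main retinaldehyde-oxidising enzymes measured here. ALDH1A1 (Entrez 216, chromosome 9, 75515578 to 75568233, hg19) measured 33.4, 29.1 and 32.6 FPKM in the control libraries (replicates 1, 2 and 3, in this order throughout), and 96.8, 91.8 and 106 in the knockdown libraries. Its lowest knockdown value was far above its highest control value. The mean went from 31.7 ± 2.31 to 98.1 ± 6.93 FPKM, a 3.09-fold rise, with a log2 change of 1.60 (SE 0.07; limma, adjusted p = 1.26e-06). Among all tested genes this change lay at the 99.6th percentile.

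ALDH1A3 (Entrez 220, chromosome 15, 101420009 to 101456830, hg19), the close relative of ALDH1A1 that oxidises all-trans retinaldehyde, moved the other way and by little. Its control values were 103, 97.7 and 102 FPKM and its knockdown values 87.3, 90.7 and 84.0. Every knockdown library was below every control library, with a log2 change of -0.21 (SE 0.05; limma, adjusted p = 0.00423). After scaling each library to the same median this became -0.12 (adjusted p = 0.0694; range over 16 settings 0.000549 to 0.0694), while after quantile normalization it was -0.30 (0.000549); ALDH1A3 was called lower in 15 of the 16 settings. ALDH1A2, the third retinaldehyde dehydrogenase, was at or under 0.0941 FPKM in every library and was not tested.

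Because both genes are read in the same library, their ratio does not change when a library is scaled by 1 factor. The FPKM ratio of ALDH1A1 to ALDH1A3 was 0.323, 0.298 and 0.319 in control libraries and 1.11, 1.01 and 1.26 in knockdown libraries. ALDH1A3 was thus the more abundant of the pair in every control library, and ALDH1A1 in every knockdown library. Of 4 such ratios, chosen after the values had been seen, each gave an exact two-sided permutation p = 0.1, the smallest possible with 3 against 3 (0.1 after adjustment over the 4).

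ALDH2 and ALDH1B1 are mitochondrial matrix enzymes that oxidise acetaldehyde, ALDH2 being the main one in ethanol breakdown. ALDH2 (Entrez 217, chromosome 12, 112204691 to 112247789, hg19) had 9.90, 10.3 and 9.10 FPKM in control libraries and 4.41, 4.34 and 4.25 in knockdown libraries. The control values were all more than 2-fold above the knockdown values. The log2 change was -1.01 (SE 0.07; limma, adjusted p = 1.15e-05) and the level 2.26-fold lower by mean FPKM.

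ALDH1B1 (Entrez 219, chromosome 9, 38392661 to 38398662, hg19) did the reverse. It stood at 5.39, 5.74 and 5.48 FPKM in control and 10.1, 10.6 and 8.92 in knockdown libraries, with no overlap. The log2 change was 0.73 (SE 0.08; limma, adjusted p = 9.50e-05), a 1.79-fold rise. The ratio of ALDH1B1 to ALDH2 went from 0.544, 0.556 and 0.603 to 2.30, 2.45 and 2.10. ALDH2 was therefore the more abundant of these 2 mitochondrial transcripts in all control libraries and the less abundant in all knockdown libraries.

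**Figure D2:**
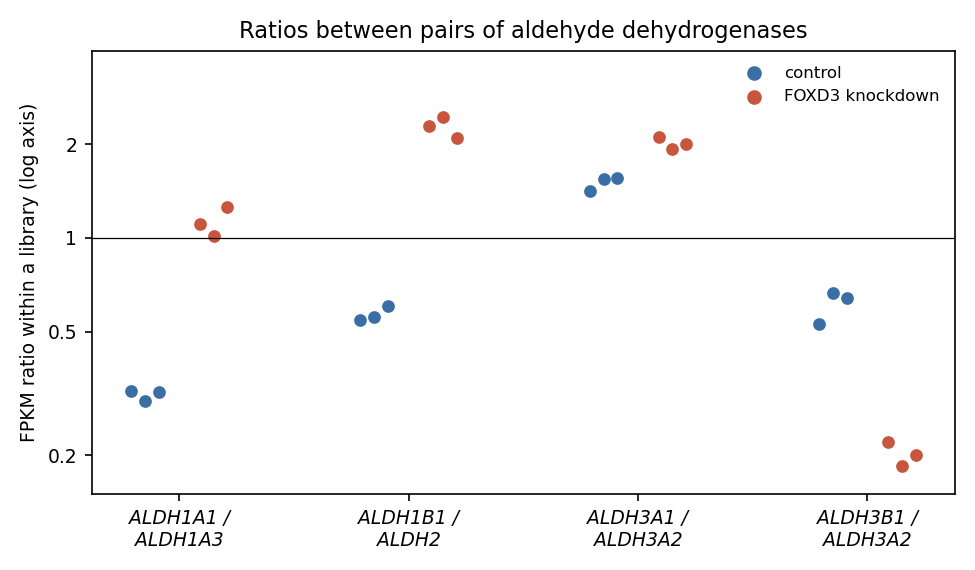
FPKM ratio of 2 aldehyde dehydrogenases within each library on a log axis, 3 control (blue) and 3 FOXD3 knockdown (red) libraries per pair; the line marks equal levels. The ratios of ALDH1A1 to ALDH1A3 and of ALDH1B1 to ALDH2 cross that line between the groups, whereas ALDH3A1 stays above ALDH3A2 and ALDH3B1 below it.

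The ALDH3 subfamily oxidises medium-chain, long-chain and aromatic aldehydes. ALDH3A1, a cytosolic enzyme also abundant in the cornea, was the most abundant of the 10 genes in the knockdown libraries. ALDH3A1 (Entrez 218, chromosome 17, 19641298 to 19651746, hg19) had 73.1, 79.4 and 80.4 FPKM in control libraries and 147, 138 and 146 in knockdown libraries. The lowest knockdown library lay well above the highest control library. The log2 change was 0.88 (SE 0.05; limma, adjusted p = 4.09e-06), and the mean rose 1.85-fold.

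ALDH3A2, the membrane-bound fatty aldehyde dehydrogenase whose loss causes Sjögren-Larsson syndrome, lies 60.4 kb from ALDH3A1 on chromosome 17 (19552064 to 19580908, hg19). It stood at 51.6, 51.1 and 51.8 FPKM in control libraries and 69.6, 71.3 and 72.9 in knockdown libraries. The control libraries were nearly alike and all knockdown libraries higher, with a log2 change of 0.46 (SE 0.04; limma, adjusted p = 3.22e-05), a 1.38-fold rise. The 2 neighbours did not rise equally: the ratio of ALDH3A1 to ALDH3A2 was 1.42, 1.55 and 1.55 in control and 2.11, 1.94 and 2.00 in knockdown libraries. Between and beside them, the transporter gene SLC47A2 stood at 0.651 ± 0.137 and 0.608 ± 0.0678 FPKM and did not pass the test (adjusted p = 0.804), and the autophagy kinase gene ULK2 fell from 5.78 ± 0.218 to 3.04 ± 0.386 (limma, adjusted p = 0.000198). Within 100 kb of the 10 genes, 25 other genes were listed and 21 tested, of which 2 rose and 8 fell (25.6% and 37.9% of all tested genes did); no listed locus overlaps any of the 10.

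ALDH3B1 (Entrez 221, chromosome 11, 67776048 to 67796743, hg19), which acts on aldehydes from lipid peroxidation, fell by about as much as ALDH2: further on the log2(FPKM + 1) scale, and less by mean FPKM and with a pseudocount of 0.1 (-1.12 against -1.15). Its values were 27.2, 34.0 and 33.2 FPKM in control libraries and 15.4, 13.2 and 14.6 in knockdown libraries. The groups were well apart, and the control libraries varied more than those of any other member, with a coefficient of variation of 11.8%. The log2 change was -1.07 (SE 0.09; limma, adjusted p = 3.01e-05), and the level was 2.18-fold lower. Relative to ALDH3A2, its level went from 0.527, 0.666 and 0.641 to 0.221, 0.185 and 0.201. Its paralog ALDH3B2 also fell, from 22.4 ± 1.95 to 15.5 ± 0.699 FPKM (log2 change -0.51, limma, adjusted p = 0.000481). Close paralogs can share reads, so the division between ALDH3B1 and ALDH3B2 is uncertain.

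**Figure D3:**
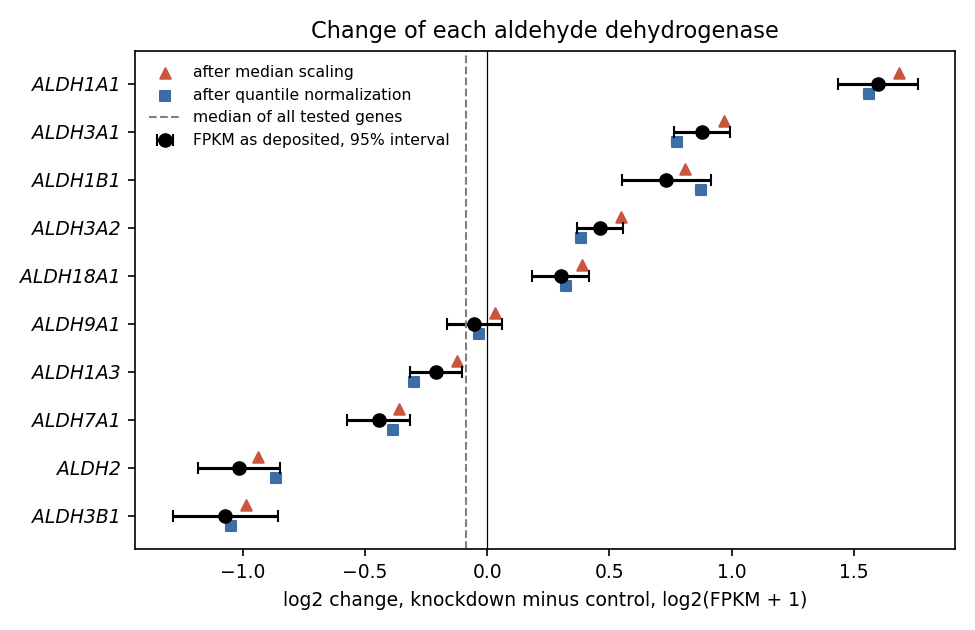
Log2 change of each of the 10 genes in FOXD3 knockdown relative to control libraries, from log2(FPKM + 1), with its 95% interval (black), after median scaling (triangles) and after quantile normalization (squares); the dashed line is the median of all tested genes. ALDH1A1 stands at 1.60 and ALDH3B1 at -1.07, and only ALDH9A1 has an interval that includes 0.

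ALDH7A1 and ALDH9A1 act in amino acid and amine metabolism. ALDH7A1 (Entrez 501, chromosome 5, 125877533 to 125931082, hg19), which oxidises the lysine product alpha-aminoadipic semialdehyde and also betaine aldehyde, had 17.8, 17 and 18.2 FPKM in control libraries and 12.7, 12.4 and 13.0 in knockdown libraries. All knockdown values were lower, with a log2 change of -0.44 (SE 0.06; limma, adjusted p = 0.000219), 1.39-fold by mean FPKM. ALDH9A1 (Entrez 223, chromosome 1, 165631449 to 165667900, hg19), which acts in carnitine synthesis and on gamma-aminobutyraldehyde, stood at 23.2, 23.5 and 24.1 FPKM in control and 23.0, 22.3 and 23.0 in knockdown libraries. The groups lay close to each other without overlapping. The log2 difference was -0.05, with a 95% interval from -0.16 to 0.06 (limma, adjusted p = 0.369), and it was 0.03 after median scaling, so its direction depends on the scaling.

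ALDH18A1 is a biosynthetic enzyme: as pyrroline-5-carboxylate synthase it carries glutamate into proline and ornithine. ALDH18A1 (Entrez 5832, chromosome 10, 97365686 to 97416567, hg19) measured 21.2, 20.8 and 20.2 FPKM in control and 25.4, 26.6 and 25.3 in knockdown libraries. Every knockdown value was higher, a 1.24-fold rise with a log2 change of 0.30 (SE 0.05; limma, adjusted p = 0.00104). Around it, the proline and glutamate list of 9 genes had 2 higher and 2 lower. As 25.6% of all tested genes were higher and 37.9% lower, these counts do not set the list apart. PYCRL, which completes proline synthesis from the ornithine route, rose from 3.65 ± 0.203 to 5.96 ± 0.658 FPKM, and OAT, ornithine aminotransferase, from 48.4 ± 1.41 to 56.5 ± 1.75. PYCR1, the mitochondrial reductase of the glutamate route, fell from 41.0 ± 3.64 to 31.1 ± 0.854. PRODH, proline dehydrogenase, fell from 1.57 ± 0.231 to 0.789 ± 0.356 (limma, adjusted p = 0.0172); this call was lost after quantile normalization (adjusted p = 0.218) and without control replicate 2 (0.0564) or knockdown replicate 2 (0.0544; range over its 15 settings 0.00582 to 0.218).

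Summed over the 10 genes, the level rose from 366, 369 and 377 FPKM in the control libraries to 491, 482 and 497 in the knockdown libraries. Not all members rose, as 5 were called higher and 4 lower. Mean FPKM rose most for ALDH1A1 (31.7 to 98.1) and ALDH3A1 (77.6 to 143.6). In control libraries the order of mean levels was ALDH1A3, ALDH3A1, ALDH3A2, ALDH1A1, ALDH3B1, ALDH9A1, ALDH18A1, ALDH7A1, ALDH2 and ALDH1B1, and of neighbours in that order only ALDH1A1 and ALDH3B1 overlapped. In knockdown libraries the order was ALDH3A1, ALDH1A1, ALDH1A3, ALDH3A2, ALDH18A1, ALDH9A1, ALDH3B1, ALDH7A1, ALDH1B1 and ALDH2, with no overlap between neighbours. ALDH1A1 held 9.13, 7.89 and 8.65% of the sum in control libraries and 19.7, 19.1 and 21.2% in knockdown libraries. ALDH3A1 went from 20.9 ± 0.851% to 29.3 ± 0.584%. The share of ALDH1A3 went from 27.3 ± 0.893% to 17.8 ± 0.975%, and that of ALDH3B1 from 8.48 ± 0.938% to 2.94 ± 0.192%. Shares within a library do not depend on how the library is scaled, but a share falls when another member rises.

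**Figure D4:**
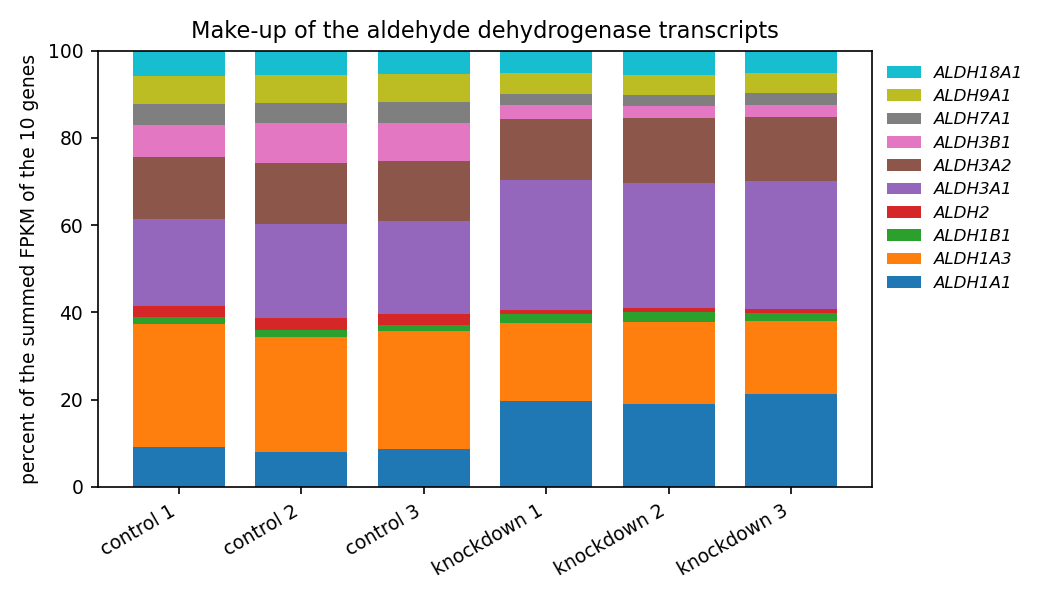
Share of each gene in the summed FPKM of the 10 aldehyde dehydrogenases, in percent, as 1 stacked bar per library. ALDH1A1 takes 7.89 to 9.13% in control and 19.1 to 21.2% in knockdown libraries, while ALDH1A3 narrows from a mean of 27.3% to 17.8%.

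Mitochondrial and cytoplasmic members each moved both ways. By the gene ontology terms in the deposited tables, 5 of the 10 products are mitochondrial, of which 2 rose, 2 fell and 1 did not pass. Of 7 with a cytoplasm or cytosol term, 3 rose and 3 fell. The 2 with an endoplasmic reticulum term, ALDH3A1 and ALDH3A2, both rose. Over all tested genes 25.6% rose and 37.9% fell, and with so few genes these counts set no compartment apart.

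Of the other 9 ALDH genes 7 were tested. Limma called 0 of these higher (0 at an unadjusted p under 0.05, 1 after median scaling) and 4 lower. Over all tested genes the shares were 25.6% higher and 37.9% lower. ALDH1L1, a cytosolic folate enzyme, fell from 1.40 ± 0.215 to 0.676 ± 0.191 FPKM. ALDH5A1, succinic semialdehyde dehydrogenase of GABA breakdown, fell from 8.83 ± 0.963 to 6.35 ± 0.459. ALDH6A1, the methylmalonate semialdehyde enzyme of valine breakdown, fell from 24.8 ± 1.34 to 16.4 ± 1.83, and ALDH3B2 fell as above. The ALDH1L1 call was lost after quantile normalization (limma, adjusted p = 0.182; range over its settings 0.00435 to 0.182). ALDH4A1, of proline breakdown, stood at 4.10 ± 0.614 and 3.61 ± 0.51 and ALDH8A1 at 0.635 ± 0.116 and 0.44 ± 0.252, neither past the threshold. ALDH16A1 stood at 24.7 ± 2.55 and 27.1 ± 1.08 (log2 difference 0.13, adjusted p = 0.157) and passed after median scaling (0.0481) and without control replicate 1 (0.00936), with a range of 0.00936 to 0.376 over 16 settings. ALDH1L2 was at most 0.185 FPKM in any library. The difference between the 10 genes and these 9 was not tested.

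The fate of retinoids before and after the ALDH1A step was described with a list of 20 genes, 14 of them tested. Of the 14, 3 rose and 4 fell (median log2 change -0.06, and 0.07 after quantile normalization). Among all tested genes 25.6% rose and 37.9% fell, so these counts do not set the list apart. The number called higher depended on the scaling: quantile normalization gave 4 and median scaling gave 5, each with 4 lower. STRA6, the cell-surface receptor that takes up retinol, fell from 35.2 ± 5.91 to 14.7 ± 0.578 FPKM (log2 change -1.19; limma, adjusted p = 4.61e-05). DHRS3, which turns retinaldehyde back to retinol, fell from 50.2 ± 6.85 to 33.5 ± 1.21. The nuclear receptor RXRB fell 1.37-fold. The 3 that rose were named after their values were seen: CRABP2, which delivers retinoic acid to its receptors, from 162.7 ± 9.09 to 219 ± 2.07, RXRA from 25.3 ± 0.163 to 32.1 ± 1.42 and RDH10, which makes retinaldehyde, from 6.36 ± 0.585 to 8.48 ± 1.00. The retinoic acid target CYP26A1 stood at 0.56 and 0.534 FPKM, near the filter, and did not pass.

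**Figure D5:**
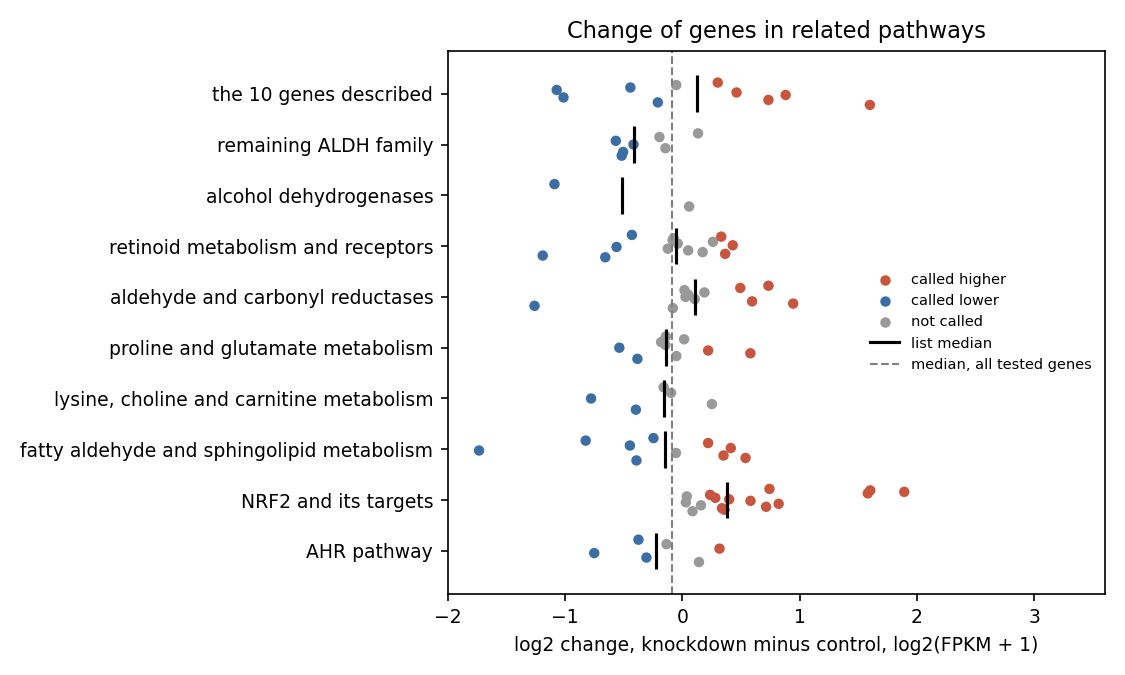
Log2 change of every tested gene in the 10 described and in 9 related lists, FOXD3 knockdown relative to control, from log2(FPKM + 1); colour gives the call, black bars the list medians and the dashed line the median of all tested genes. The NRF2 list lies to the right of that line, while the retinoid and sphingolipid lists spread to both sides.

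In the list of 11 aldehyde and carbonyl reductases 4 rose and 1 fell (5 and 2 after quantile normalization), against 25.6% higher and 37.9% lower over all tested genes. AKR1B10, which reduces retinaldehyde and lipid aldehydes, rose from 391 ± 4.46 to 753 ± 14.3 FPKM, and AKR1B1, aldose reductase, fell from 1485 ± 67.6 to 619 ± 8.99 (log2 changes 0.94 and -1.26; limma, adjusted p = 7.84e-07 and 5.15e-07). PTGR1, which reduces the double bond of unsaturated lipid aldehydes and ketones, rose 1.66-fold, AKR1C1 1.51-fold and CBR3, named after its values were seen, 1.44-fold. AKR1C1 is nearly identical to AKR1C2, so its value is uncertain. Of 8 alcohol dehydrogenases only ADH5 and ADHFE1 reached the level to be tested. ADH5, the formaldehyde-clearing class III enzyme, stood at 40.4 and 42.0 FPKM without passing, and ADHFE1 fell from 1.95 ± 0.321 to 0.381 ± 0.124. The knockdown mean of ADHFE1 lay under the filter of 0.5 FPKM.

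Transcription factor pathways known to act on ALDH genes were then described. NRF2 is the antioxidant regulator under which ALDH3A1 and ALDH1A1 are often placed. Its list had 12 of 16 higher and 0 lower (0 lower at an unadjusted p under 0.05), with a median log2 change of 0.38. Over all tested genes 25.6% were higher and 37.9% lower. After quantile normalization limma called 11 higher and TXNRD1, thioredoxin reductase, lower. Of the 12, SLC7A11, named after its values were seen, was called in only 8 of 16 settings (limma, adjusted p from 0.00833 to 0.105). The 12 include KEAP1, which encodes the inhibitor of NRF2 and not a target. KEAP1, named after its values were seen, rose from 43.2 to 55.6 FPKM. GPX2, a glutathione peroxidase, UGDH, which makes UDP-glucuronate, and OSGIN1 rose 3.73-, 3.06- and 3.53-fold, and GCLM, a subunit of the enzyme that starts glutathione synthesis, 1.77-fold. NFE2L2, which encodes NRF2, had a mean of 42.5 ± 4.33 FPKM in control and 45.02 ± 1.74 in knockdown libraries and did not pass (limma, adjusted p = 0.351). In A549 cells NRF2 is known to be constitutively active through a mutated KEAP1. In the AHR list 1 of 6 was higher and 3 lower. AHRR, the receptor's repressor, fell from 2.23 ± 0.437 to 0.916 ± 0.2 FPKM, TIPARP 1.31-fold and ARNT 1.26-fold. CYP1A1, the classical AHR target, stood at 0.465 ± 0.0542 and 0.827 ± 0.15 (limma, adjusted p = 0.0389), with its control mean under the filter of 0.5 FPKM. That call was lost without any 1 of the 6 libraries, with adjusted p from 0.0605 to 0.14 (range over its 15 settings 0.0017 to 0.14).

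Genes of fatty aldehyde and sphingolipid metabolism, a list that holds enzymes which make, use or stand beside the substrates of ALDH3A2, moved both ways. Of the 10, 4 were higher and 5 lower, where 25.6% and 37.9% of all tested genes were. After median scaling or quantile normalization 4 were higher and 4 lower. With so few genes these counts do not set the list apart. SGPP2, a sphingosine phosphate phosphatase, fell from 4.12 ± 1.3 to 0.511 ± 0.194 FPKM, PHYH, of phytanic acid oxidation, 2.06-fold and FAR2, a fatty acyl reductase, 1.42-fold, while SPHK1, sphingosine kinase 1, rose 1.49-fold. FAR1, the paralog of FAR2 and named after its values were seen, rose from 13.4 ± 2.45 to 18.0 ± 1.28 FPKM (called in 14 of 16 settings). SGPL1, the lyase that releases the fatty aldehyde itself and was named after its values were seen, fell from 26.9 ± 0.703 to 20.3 ± 1.08. In the lysine, choline and carnitine list 5 of 9 genes were tested and 2 fell, AASDH from 4.15 ± 0.351 to 2.91 ± 0.297 and DMGDH from 0.957 ± 0.21 to 0.138 ± 0.0663. DMGDH lay near the floor and reached the filter of 0.5 FPKM only through its control values. It was not tested when control replicate 2 or 3 was left out. With no filter it was called lower (limma, adjusted p = 0.000716). The AASDH call was lost after quantile normalization (limma, adjusted p = 0.221; range over its settings 0.00507 to 0.221). AASS, CHDH, BHMT and BBOX1, which stand beside ALDH7A1 and ALDH9A1 in those pathways, were too low to test.

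Genes whose profile over the 6 libraries was closest to that of ALDH1A1 were HMGB3, NOP16, CTSL2, KIF20A and NETO2, with Euclidean distances of 0.208 to 0.284 between centred log2(FPKM + 1) profiles, against a median of 2.01 over 9169 genes. Those closest to ALDH3A1 were SLC12A2, PDIA4, CALR, SRSF3 and PSMA3, at 0.0856 to 0.108 against a median of 1.13. Over 2 groups of 3 libraries a near profile means above all a group difference of similar size.

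The authors' deposited table of their own comparison lists all 10 genes among 12275. Of the 10, 6 had a false discovery rate under 0.05 in the authors' deposited table, against 22.1% of its genes: ALDH1A1, ALDH1B1, ALDH2, ALDH3A1, ALDH3A2 and ALDH3B1. ALDH18A1 (0.161), ALDH7A1 (0.239), ALDH1A3 (0.782) and ALDH9A1 (0.933) were above that limit in the authors' deposited table, 3 of them called by limma here. So were the 4 other ALDH genes that limma called lower: ALDH6A1 (0.086), ALDH1L1 (0.135), ALDH3B2 (0.218) and ALDH5A1 (0.307). The authors' deposited table gives ALDH1A1 a log2 fold change of 1.72 and ALDH3B1 -0.99, and its sign for ALDH9A1, 0.04, is opposite to that from the library values, as after median scaling.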

How the data were processed

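The authors deposited FPKM values, 1 table per library, per the file headers. The submitters' processing notes name the build hg19, Cuffdiff, Cufflinks 2.0.2, Bowtie and TopHat2 2.0.12 without saying what each was used for. RNA libraries were made with the TruSeq kit, per the labels' protocols. Which annotation was counted, and whether by strand, is not given in the sources used here. A further deposited table holds, per the file headers, the authors' log2 fold change, p-value, false discovery rate and FPKM of each group; it is quoted only where named.

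FPKM was summed over the rows of a symbol and set to 0 where a symbol was not listed; each of the 10 genes has 1 locus and a value in all 6 libraries. The 13340 genes whose mean reached 0.5 FPKM were tested on log2(FPKM + 1) with limma 3.58.1 in R 4.3.3, two-sided, using eBayes with a trend; p-values were adjusted over all of them by Benjamini-Hochberg, with a threshold of 0.05. The script was tested on simulated data. Depth was estimated from single-exon genes with a GENCODE 29 length of 1500 bp or more (tolerance 10%), reading only values that imply 5000000 to 12000000 fragments, so it cannot leave that window. Loci are on hg19, 1-based; RefSeq windows are on GRCh38.p14.

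The 10 genes, the lists and the rules were chosen with earlier results of these data known. Named were all ALDH genes, up to 4 called genes with the largest change per list, and the 5 nearest profiles, over genes of at least 5 FPKM, to ALDH1A1 and ALDH3A1. Lists are described by counts and medians, without a test. Their counts stand against 25.6% of all tested genes higher and 37.9% lower. A gene that the rule selects is not reported here.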

Additional observations from a re-analysis of the deposited data

How the results depend on the processing

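The counts of called genes and the changes of the named genes were recomputed under up to 15 alternatives: quantile normalization, median scaling, pseudocounts of 0.1 and 0.5, a filter at 5 FPKM or none, robust eBayes, eBayes with no trend, the highest locus of a symbol, and each library left out in turn. Of 150 recomputed changes of the 10 genes, 148 kept their direction and their side of the threshold. The exceptions were ALDH1A3, no longer called after median scaling, and ALDH9A1, whose uncalled difference became 0.033 (log2) there; the cause was not tested. ALDH4A1 and ALDH8A1, also uncalled, changed sign after quantile normalization, to 0.108 and 0.111. The adjusted p of ALDH1L1 rose to 0.182 under that setting. The filter at 5 FPKM called 3295 genes lower, against 5050, with fewer genes tested. All genes called split into 3417 higher and 5050 lower as deposited, 4140 and 4304 after median scaling, and 4304 and 3909 after quantile normalization. The summed level and the share of ALDH1A1 were recomputed under fewer settings, the lists under both scalings only, and the ratios, profiles, neighbours and compartments under none. Median scaling moved the summed level of the 10 genes to 359.5 FPKM in control and 505 in knockdown libraries. No alternative changed the count of 5 members that rose; that of members that fell went from 4 to 3 after median scaling only. No paired analysis was possible because the labels give no replicate numbers; those used here only name libraries. Depth is known only by a rough estimate, so no counting error was attached to single values.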
